A study of Mus musculus with 15 samples.

Results

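The nuclear genes for subunits of the oxidative phosphorylation complexes were followed in mouse liver. They were taken as the genes whose symbol begins with Ndufa, Ndufb, Ndufc, Ndufs, Ndufv, Uqcr, Cox4 to Cox8 or Atp5, or is Sdha, Sdhb, Sdhc or Sdhd. A summed count of at least 150 over the 15 libraries was also required. Of the 15302 genes in the count table, 93 symbols matched and 88 met the minimum. The rule used no difference between groups. By their products, 36 members belong to complex I, 4 to complex II, 8 to complex III, 11 to complex IV and 17 to complex V. These 76 structural subunits were joined by 8 assembly factors of complex I (Ndufaf1 to Ndufaf8) and 4 isoforms or copies (Cox7a1, Cox7a2l, Ndufa4l2 and Ndufb4c). The 5 matching genes under the minimum were Cox4i2 (19 counts), Cox6a2 (14), Cox6b2 (31), Cox8b (7) and Ndufs5-ps (32). Just inside it lay Ndufa4l2 with 229 counts and Cox7a1 with 254.

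Bulk RNA was sequenced from 15 liver samples of wild-type mice, in 3 groups of 5. From 8 weeks of age all of them ate a MASH diet (MASH is metabolic dysfunction-associated steatohepatitis, an inflamed fatty liver) at about 29°C, and they were housed singly during treatment. GDF15 animals were injected under the skin each morning with 1 nmol/kg of recombinant GDF15, a stress hormone that suppresses appetite by way of a hindbrain receptor. PairFed animals were given as much food as the GDF15 animals had eaten the day before, and Vehicle animals were the controls. There was no group on a normal diet. The sources used here do not give the duration of treatment or the sex of the animals.

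Oxidative phosphorylation takes place in the inner mitochondrial membrane. Complexes I and II take electrons from NADH and succinate, complex III passes them through cytochrome c to complex IV, and complex IV hands them to oxygen. Complexes I, III and IV pump protons as they do so, and complex V, the ATP synthase, uses the returning protons to make ATP. Most subunits are encoded in the nucleus and a few core subunits in mitochondrial DNA. The hepatocyte is rich in mitochondria and uses this pathway to burn the electrons set free by fatty acid oxidation. Many of the nuclear genes share the transcription factors NRF1, GABP and YY1 and the coactivator PGC-1α, which is encoded by Ppargc1a.

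Total counts ran from 8551557 to 10914914 in the GDF15 libraries, from 10133289 to 12933324 in the PairFed libraries and from 9228127 to 12994187 in the Vehicle libraries. A gap in total count between 10914914 and 12137462 set 5 libraries apart as more deeply sequenced, PairFed 2 to 5 and Vehicle 4. No GDF15 library was among them, so depth and group were partly tied. All 88 members were among the 12274 genes tested. Hepatocyte markers were abundant in each library: 9 of the 10 listed genes were in the table, and their summed level ran from 99321 to 126592 CPM in GDF15, from 94663 to 117199 CPM in PairFed and from 86336 to 108117 CPM in Vehicle. CPM, the usual depth-scaled count, was taken with library sizes scaled by trimmed means of M-values (TMM). The library numbers only name the libraries in the order of the table, since the columns could not be tied to single animals.

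The members lie on 19 chromosomes, and 86 of their symbols were found in the GENCODE M21 annotation of the mouse build GRCm38 (mm10). Their transcripts are short, with a median length of 751.5 bases, and 55 of them are under 1000 bases. Levels were compared between genes as CPM per kilobase of transcript, for the 77 members whose principal transcripts agree in length. In Vehicle livers the median level was 87.4 CPM per kilobase for complex I, 147 for complex II, 186 for complex III, 261 for complex IV and 233 for complex V. The complex I assembly factors stood far lower, with a median of 8.44 CPM per kilobase. At the top was Atp5b, the catalytic β subunit of the ATP synthase, with 582 CPM per kilobase in Vehicle. It was followed by Ndufa4, a subunit of complex IV despite its name, with 563, Atp5g3, a gene for the membrane ring subunit c, with 488, and Cox4i1, a regulatory subunit of complex IV, with 468. At the bottom stood Ndufa4l2, a relative of Ndufa4 that is induced by low oxygen, with 1.31 CPM per kilobase, and Cox7a1, the isoform of heart and skeletal muscle, with 3.60. Of 10 striated muscle markers, 8 were not in the table, among them Ckm, Acta1 and Myh4.

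Several members have near copies elsewhere in the genome, which counting can mix up. The median member shared 5.66% of its 31-base words with transcripts of other genes, and 9 members shared over 50%. These were Atp5g1, Atp5g2, Atp5h, Atp5l, Atp5o, Cox7c, Ndufb4c, Ndufs3 and Uqcrb, and their counts are uncertain to that extent. Ndufb4c, annotated by GENCODE as a processed pseudogene, shared 100% of its words with other genes. It was listed at 41.8 ± 2.78 CPM in GDF15, 43.3 ± 2.01 CPM in PairFed and 42.3 ± 2.22 CPM in Vehicle (mean ± SD, n = 5 each), while Ndufb4, its parent gene and a subunit of complex I, was listed at 20.2 ± 1.93 CPM in GDF15, 19.1 ± 2.55 CPM in PairFed and 18.7 ± 0.92 CPM in Vehicle. How the reads were split between these genes was not tested.

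The contrast of GDF15 with Vehicle asks what treatment did in full, including what came through eating less. With TMM scaling and all 15 libraries, nearly all members lay slightly above Vehicle, and no single member passed the test. The direction turned when libraries were scaled by total counts alone. The median log2 fold change of the 88 members was 0.10, or 1.07-fold, while the median of all 12274 genes tested was -0.0046. Of the members, 84 (95.5%) had a positive log2 fold change, against 48.9% of all genes tested. Fewer were positive in other settings: 72 of 84 with a filter of 10 CPM in 5 libraries and 72 of 88 with upper-quartile factors. Without GDF15 1 the count was 73, without Vehicle 1 it was 75, and with total counts alone it was 31. With edgeR's quasi-likelihood test and Benjamini-Hochberg adjustment, 0 of 88 members passed an adjusted p of 0.05, where 2.9% of all genes did. At an unadjusted p below 0.05 stood 10 members (11.4%), against 16.7% of all genes. DESeq2's Wald test called 4 members, Atp5d, Atp5g1, Ndufa12 and Sdhb, all higher in GDF15, which is 4.55% against 5.23% of all genes by that tool. limma-voom called 0, against 2.53% of all genes. The groups did not overlap for 1 member that was higher in GDF15, against 2.48% of all genes, and for 0 members that were lower, against 1.51%. These p-values measure only the spread between the animals sequenced, and in bulk tissue more RNA per cell and more cells of a type cannot be told apart.

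The spread within groups was small enough to bound the differences. The median standard error of a member's log2 fold change was 0.08, against 0.11 over all genes. For 85 of the 88 members (96.6%) the 95% interval in GDF15 against Vehicle lay within a 1.5-fold change either way, which held for 71.1% of all genes. The 3 exceptions, Atp5g2, Cox7a1 and Ndufa4l2, were 3 of the 4 members with the fewest counts. Members and all genes were not matched for abundance in these comparisons. An adjusted p above 0.05 does not show that the levels were equal.

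The contrast of PairFed with Vehicle asks what the smaller ration did without injected GDF15. The median log2 fold change of the members was 0.05, against -0.0005 over all genes, and 70 members (79.5%) were on the positive side, against 49.9% of all genes. That lead was smaller in other settings: the median was 0.0094 with 50 members positive with total counts alone, 0.03 with 55 positive with a term for the deeper libraries, and 0.02 with 56 positive without Vehicle 1. edgeR's test called 0 members at an adjusted p of 0.05, where it called 0.285% of all genes. DESeq2 called 0 of the 87 members to which it gave an adjusted p, against 2.94% of all genes, and limma-voom called 0, against 0.31%. At an unadjusted p below 0.05 stood 1 member (1.14%), against 16.9% of all genes. The groups did not overlap for 4 members higher in PairFed, against 2.21% of all genes, and for 0 members lower, against 1.71%. The 4 were Atp5b, Atp5d, Cox6b1 and Sdhb, and they are named here after their values were seen. The 95% interval lay within a 1.5-fold change either way for 85 members, against 72.4% of all genes.

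GDF15 was compared with PairFed for what the hormone does beyond lower food intake. The median log2 fold change of the members was 0.05, against 0.0007 over all genes, and 71 members (80.7%) were positive, against 50.2% of all genes. The direction turned with total counts alone, which gave a median of -0.02 with 33 members positive, and without GDF15 1 the median was 0.0044 with 50 positive. At an adjusted p of 0.05 edgeR's test called 0 members, against 0.782% of all genes, and limma-voom called 0, against 0.595%. DESeq2 called 0 of the 84 members to which it gave an adjusted p, against 2.8% of all genes. At an unadjusted p below 0.05 stood 1 member, Atp5g1 (1.14%), against 13.3% of all genes. No member had groups that did not overlap, against 1.31% of all genes on the higher side and 1.55% on the lower. The 95% interval lay within a 1.5-fold change either way for 85 members, against 73.4% of all genes. The 3 comparisons share their groups pairwise and are therefore not independent of each other.

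**Figure D1:**
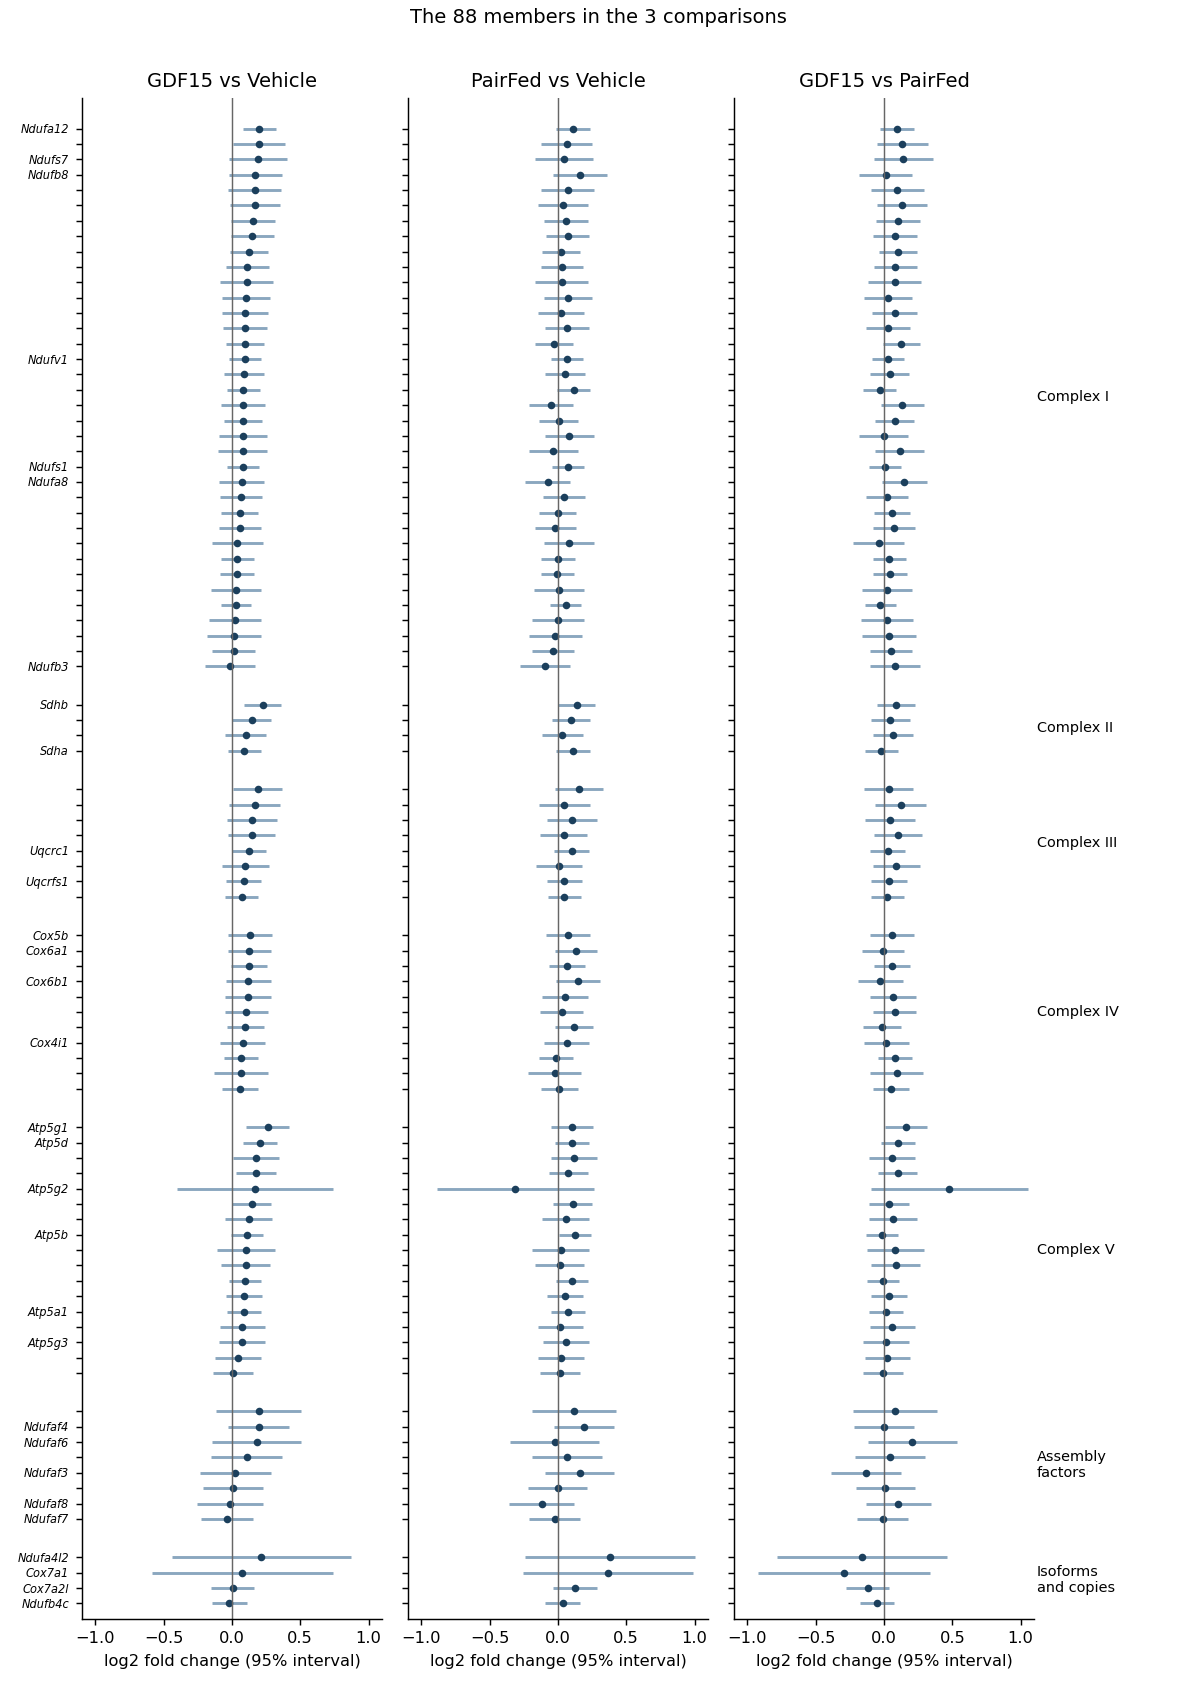
Log2 fold changes of the 88 members (points) with 95% intervals (bars) in 1 panel per comparison, with the genes grouped by complex and ordered by the first comparison, and with names beside the genes whose own fold change is given in the text. With TMM scaling, points sit right of 0 for 84 members in GDF15 vs Vehicle, for 70 in PairFed vs Vehicle and for 71 in GDF15 vs PairFed, and the wide bars are those of Atp5g2, Cox7a1 and Ndufa4l2.

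With TMM scaling the medians of the complexes lay close together. In GDF15 against Vehicle the median log2 fold change was 0.08 for complex I, 0.12 for complex II, 0.13 for complex III, 0.11 for complex IV and 0.10 for complex V. The assembly factors had a median of 0.07. In PairFed against Vehicle the complexes ran from 0.03 in complex I to 0.10 in complex II, and in GDF15 against PairFed from 0.04 in complex III to 0.07 in complex I. The differences between complexes were not tested.

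Complex I oxidises NADH, and its 7 core nuclear subunits in the table carry the flavin and most of the iron-sulfur clusters. All 7 had a positive log2 fold change in GDF15 against Vehicle, with a median of 0.09, and 28 of the 29 supernumerary subunits did, with a median of 0.08. Ndufs1, the largest core subunit, stood at 141, 134, 135, 143 and 135 CPM in the GDF15 livers, 141, 137, 129, 144 and 135 CPM in the PairFed livers and 126, 132, 135, 118 and 139.9 CPM in the Vehicle livers. The groups overlapped, and the log2 fold change was 0.08 ± 0.06 (SE, adjusted p = 0.516) in GDF15 against Vehicle and 0.07 ± 0.06 (SE, adjusted p = 0.521) in PairFed against Vehicle. Ndufs7, which holds the cluster next to the ubiquinone site, stood at 83.1, 67.0, 62.8, 55.6 and 49.9 CPM in the GDF15 livers, 59.2, 62.6, 56.1, 55.3 and 54.7 CPM in the PairFed livers and 50.8, 57.7, 54.0, 60.9 and 55.3 CPM in the Vehicle livers. GDF15 1 stood alone at the top while GDF15 5 was lower than each of the PairFed and Vehicle livers. Its log2 fold change against Vehicle was 0.19 ± 0.10 (SE, adjusted p = 0.37), with a 95% interval of -0.02 to 0.40. Ndufv1, which binds the flavin that takes the electrons from NADH, averaged 155 ± 11 CPM in GDF15, 152 ± 5.28 CPM in PairFed and 145 ± 3.93 CPM in Vehicle (mean ± SD, n = 5 each), with 0.09 ± 0.06 (SE, adjusted p = 0.429) in GDF15 against Vehicle.

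Among the supernumerary subunits, Ndufa12, which joins complex I late in its assembly, was the only member whose GDF15 and Vehicle livers did not overlap. It stood at 61.7, 57.8, 56.9, 56.9 and 53.5 CPM in the GDF15 livers, 52.2, 57.4, 51.7, 52.2 and 55.3 CPM in the PairFed livers and 50.9, 48.5, 45.1, 51.6 and 53.1 CPM in the Vehicle livers. The lowest GDF15 liver lay just above the highest Vehicle liver, and the PairFed livers overlapped both. The difference on the log2 scale was 0.20 ± 0.06 (SE, adjusted p = 0.0732) in GDF15 against Vehicle, 0.11 ± 0.06 (SE, adjusted p = 0.35) in PairFed against Vehicle and 0.09 ± 0.06 (SE, adjusted p = 0.521) in GDF15 against PairFed. Ndufa12 was chosen after its values were seen. Ndufb3, a small subunit of the membrane arm, was the 1 structural subunit of the 76 with a negative value in GDF15 against Vehicle, at -0.01 ± 0.09 (SE, adjusted p = 0.962), and its log2 fold change in PairFed against Vehicle was -0.10 ± 0.09 (SE, adjusted p = 0.599). In PairFed against Vehicle Ndufb8, also of the membrane arm, had the highest value of complex I at 0.16 ± 0.09 (SE, adjusted p = 0.395), and Ndufa8 was at -0.08 ± 0.08 (SE, adjusted p = 0.661). Ndufa8, a twin-cysteine subunit on the outer face of the membrane arm, was at 0.15 ± 0.08 (SE, adjusted p = 0.426) in GDF15 against PairFed.

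The assembly factors build complex I without staying in it. Of the 8, 6 had a positive log2 fold change in GDF15 against Vehicle, 4 in PairFed against Vehicle and 6 in GDF15 against PairFed, and 0 passed edgeR's test, DESeq2 or limma-voom in any of them, with 0 at an unadjusted p below 0.05 by each tool. Ndufaf4 averaged 28.2 ± 3.56 CPM in GDF15, 28.1 ± 1.92 CPM in PairFed and 24.6 ± 3.99 CPM in Vehicle (mean ± SD, n = 5 each), with 0.19 ± 0.10 (SE, adjusted p = 0.355) in PairFed against Vehicle. Ndufaf7, a mitochondrial methyltransferase, and Ndufaf8 lay just below 0 in GDF15 against Vehicle, at -0.03 ± 0.09 (SE, adjusted p = 0.896) and -0.02 ± 0.11 (SE, adjusted p = 0.968). Ndufaf8 was at -0.12 ± 0.11 (SE, adjusted p = 0.619) in PairFed against Vehicle. In GDF15 against PairFed the extremes were Ndufaf6 at 0.21 ± 0.15 (SE, adjusted p = 0.613) and Ndufaf3 at -0.13 ± 0.12 (SE, adjusted p = 0.69).

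Complex II, succinate dehydrogenase, is the step that the respiratory chain shares with the citric acid cycle, and all its subunits are nuclear. All 4 genes had a positive log2 fold change in GDF15 against Vehicle and in PairFed against Vehicle, and 3 in GDF15 against PairFed. Sdhb, the iron-sulfur subunit, lies on chromosome 4 at 140961203 to 140979193 and shared none of its words with another gene. It stood at 204, 207, 177, 189.9 and 168 CPM in the GDF15 livers, 179, 190.4, 175, 174 and 172 CPM in the PairFed livers and 146, 159, 171, 166 and 168 CPM in the Vehicle livers. GDF15 1 and GDF15 2 were the highest of the 15 livers, each PairFed liver lay above each Vehicle liver, and GDF15 and Vehicle overlapped. The log2 fold change of Sdhb was 0.22 ± 0.07 (SE, adjusted p = 0.0732) in GDF15 against Vehicle, 0.14 ± 0.07 (SE, adjusted p = 0.296) in PairFed against Vehicle and 0.09 ± 0.07 (SE, adjusted p = 0.611) in GDF15 against PairFed. Sdha, the flavoprotein that oxidises succinate, averaged 586 ± 26.6 CPM in GDF15, 594 ± 30.8 CPM in PairFed and 550.3 ± 27.9 CPM in Vehicle (mean ± SD, n = 5 each). For Sdha the log2 fold change was 0.09 ± 0.06 (SE, adjusted p = 0.472) in GDF15 against Vehicle and 0.11 ± 0.06 (SE, adjusted p = 0.343) in PairFed against Vehicle.

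Complex III, the cytochrome bc1 complex, moves electrons from ubiquinol to cytochrome c. Its 8 members had positive log2 fold changes in each of the 3 comparisons. Uqcrc1, a core protein on the matrix side, stood at 272, 276, 256, 258 and 229 CPM in the GDF15 livers, 255, 273, 243, 252 and 246 CPM in the PairFed livers and 229.9, 232, 245, 225 and 252 CPM in the Vehicle livers. All 3 groups overlapped, and GDF15 5 lay within the Vehicle range. The log2 fold change of Uqcrc1 was 0.13 ± 0.06 (SE, adjusted p = 0.308) in GDF15 against Vehicle and 0.10 ± 0.06 (SE, adjusted p = 0.413) in PairFed against Vehicle. Uqcrfs1, the Rieske iron-sulfur protein, averaged 197 ± 16.3 CPM in GDF15, 192 ± 8.01 CPM in PairFed and 186 ± 8.96 CPM in Vehicle (mean ± SD, n = 5 each), with 0.09 ± 0.06 (SE, adjusted p = 0.524) in GDF15 against Vehicle. Cyc1, the cytochrome c1 of the same complex, is not covered by the symbol rule. It averaged 192 ± 11.3 CPM in GDF15, 181 ± 8.58 CPM in PairFed and 174 ± 8.80 CPM in Vehicle, and stood 0.14 ± 0.06 log2 units (SE, adjusted p = 0.213) above Vehicle in GDF15.

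Complex IV, cytochrome c oxidase, reduces oxygen to water around a core encoded in mitochondrial DNA, and the nuclear members surround that core. All 11 had a positive log2 fold change in GDF15 against Vehicle, 9 did in PairFed against Vehicle and 8 in GDF15 against PairFed. Cox4i1 stood at 441, 361, 372, 339 and 329.8 CPM in the GDF15 livers, 370.1, 389, 357, 366 and 341 CPM in the PairFed livers and 306, 373, 333, 365 and 368 CPM in the Vehicle livers. GDF15 1 was the highest liver and Vehicle 1 the lowest, and the other 13 lay between 330 and 389 CPM. For Cox4i1 the log2 fold change was 0.08 ± 0.08 (SE, adjusted p = 0.67) in GDF15 against Vehicle and 0.06 ± 0.08 (SE, adjusted p = 0.724) in PairFed against Vehicle. Cox5b, a zinc-binding subunit, averaged 159 ± 20.2 CPM in GDF15, 153 ± 7.28 CPM in PairFed and 145 ± 9.66 CPM in Vehicle (mean ± SD, n = 5 each) and had the highest value of the complex in GDF15 against Vehicle, 0.13 ± 0.08 (SE, adjusted p = 0.422). Cox6a1, the liver form of subunit VIa, was at 0.13 ± 0.07 (SE, adjusted p = 0.409) in that comparison and at 0.13 ± 0.07 (SE, adjusted p = 0.364) in PairFed against Vehicle. Cox6b1, which faces the space between the membranes, was among the 4 members whose PairFed and Vehicle livers did not overlap. The gene averaged 209.6 ± 27.5 CPM in GDF15, 213 ± 13.3 CPM in PairFed and 193 ± 9.69 CPM in Vehicle (mean ± SD, n = 5 each), with 0.15 ± 0.08 (SE, adjusted p = 0.343) in PairFed against Vehicle.

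The tissue isoforms of complex IV were close to the limit of detection in these livers. Cox4i2, Cox6a2, Cox6b2 and Cox8b were below the minimum sum. Cox7a1 stood at 1.41, 2.29, 1.56, 1.47 and 0.74 CPM in the GDF15 livers, 1.63, 1.35, 1.37, 2.61 and 2.12 CPM in the PairFed livers and 0.99, 1.01, 1.66, 1.39 and 2.03 CPM in the Vehicle livers, with overlapping groups. Its log2 fold change was 0.08 ± 0.31 (95% interval -0.58 to 0.74) in GDF15 against Vehicle, 0.37 ± 0.30 in PairFed against Vehicle and -0.29 ± 0.30 in GDF15 against PairFed. Ndufa4l2 averaged 1.44 ± 0.33 CPM in GDF15, 1.59 ± 0.52 CPM in PairFed and 1.23 ± 0.42 CPM in Vehicle (mean ± SD, n = 5 each), with 0.22 ± 0.31 in GDF15 against Vehicle, 0.38 ± 0.30 in PairFed against Vehicle and -0.16 ± 0.30 in GDF15 against PairFed. With intervals as wide as these, a difference of 1.5-fold in either gene was not detectable in these data. Cox7a2l, which takes part in joining complexes III and IV into supercomplexes, averaged 85.7 ± 4.43 CPM in GDF15, 93.1 ± 4.34 CPM in PairFed and 85.3 ± 10.8 CPM in Vehicle, with -0.12 ± 0.08 (SE, adjusted p = 0.522) in GDF15 against PairFed.

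Complex V makes ATP, and its 17 members all had a positive log2 fold change in GDF15 against Vehicle, 16 did in PairFed against Vehicle and 14 in GDF15 against PairFed. Its catalytic head with the central stalk was represented by 5 genes with a median of 0.11 in GDF15 against Vehicle. Its other stalk and the membrane part, without subunit c, were represented by 9 genes with a median of 0.10. Atp5b, on chromosome 10 at 128083273 to 128090391, stood at 1205, 1270.0, 1140.2, 1269 and 1136 CPM in the GDF15 livers, 1206, 1250.4, 1176, 1236 and 1207 CPM in the PairFed livers and 1095, 1080.0, 1145, 1087 and 1171 CPM in the Vehicle livers. Each PairFed liver lay above each Vehicle liver, while GDF15 3 and GDF15 5 lay inside the Vehicle range. The log2 fold change of Atp5b was 0.11 ± 0.06 (SE, adjusted p = 0.332) in GDF15 against Vehicle, 0.12 ± 0.06 (SE, adjusted p = 0.265) in PairFed against Vehicle and -0.01 ± 0.06 (SE, adjusted p = 0.947) in GDF15 against PairFed. Atp5a1, the α subunit that alternates with β in the head, was at 0.09 ± 0.06 (SE, adjusted p = 0.495) in GDF15 against Vehicle.

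Atp5d encodes the δ subunit of the central stalk and lies on chromosome 10 at 80138632 to 80145818. It stood at 268, 241, 238, 234 and 210.0 CPM in the GDF15 livers, 216, 232, 218, 224 and 217 CPM in the PairFed livers and 197, 207, 209, 207 and 210.4 CPM in the Vehicle livers. GDF15 1 was the highest liver, 4 of the 5 GDF15 livers and all 5 PairFed livers lay above each Vehicle liver, and GDF15 5 lay inside the Vehicle range. Its log2 fold change was 0.21 ± 0.06 (SE, adjusted p = 0.0663) in GDF15 against Vehicle, 0.10 ± 0.06 (SE, adjusted p = 0.39) in PairFed against Vehicle and 0.11 ± 0.06 (SE, adjusted p = 0.457) in GDF15 against PairFed. Without GDF15 5 the first of these was 0.25 (adjusted p = 0.0265).

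Subunit c, which forms the rotating ring in the membrane, is made from 3 genes whose products share the same mature peptide. Atp5g1, on chromosome 11 at 96068852 to 96075670, had the highest log2 fold change of all members in GDF15 against Vehicle. It stood at 191, 188, 179, 181 and 148 CPM in the GDF15 livers, 156, 181, 154, 155 and 147 CPM in the PairFed livers and 143, 150.3, 161, 140.3 and 144 CPM in the Vehicle livers. Of the GDF15 livers, 4 stood above each Vehicle liver, GDF15 5 lay within the Vehicle range, and PairFed 2 lay within the range of the 4 higher GDF15 livers. The log2 fold change of Atp5g1 was 0.26 ± 0.07 (SE, adjusted p = 0.0655) in GDF15 against Vehicle, with a 95% interval of 0.11 to 0.42. It was 0.10 ± 0.07 (SE, adjusted p = 0.51) in PairFed against Vehicle and 0.16 ± 0.07 (SE, adjusted p = 0.362) in GDF15 against PairFed. Without GDF15 5 its difference from Vehicle was 0.32 (adjusted p = 0.0168), and without PairFed 2, which enters through the shared estimate of the spread, it was 0.26 (adjusted p = 0.0496). The gene shared 57.6% of its words with other genes.

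Atp5g3, the most abundant of the 3, averaged 366 ± 44.3 CPM in GDF15, 363 ± 20.7 CPM in PairFed and 348 ± 28.0 CPM in Vehicle (mean ± SD, n = 5 each), with 0.07 ± 0.08 (SE, adjusted p = 0.708) in GDF15 against Vehicle. Atp5g2 stood at 9.97, 7.0, 7.21, 3.73 and 6.94 CPM in the GDF15 livers, 6.33, 4.61, 4.50, 3.99 and 5.50 CPM in the PairFed livers and 5.25, 3.42, 6.76, 4.91 and 10.7 CPM in the Vehicle livers. The groups overlapped over most of their range, and its log2 fold changes were 0.17 ± 0.27 in GDF15 against Vehicle, -0.31 ± 0.27 in PairFed against Vehicle and 0.48 ± 0.27 in GDF15 against PairFed. It was the most variable of the members within groups, and each of its words is also found in another gene. The remaining members at an unadjusted p below 0.05 in GDF15 against Vehicle were Atp5j, Atp5e and Atp5o of complex V, Ndufb10 of complex I, Sdhd of complex II and Uqcr10 of complex III. Their log2 fold changes ran from 0.14 to 0.20 and their adjusted p-values from 0.184 to 0.295, and they were chosen after their values were seen.

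**Figure D2:**
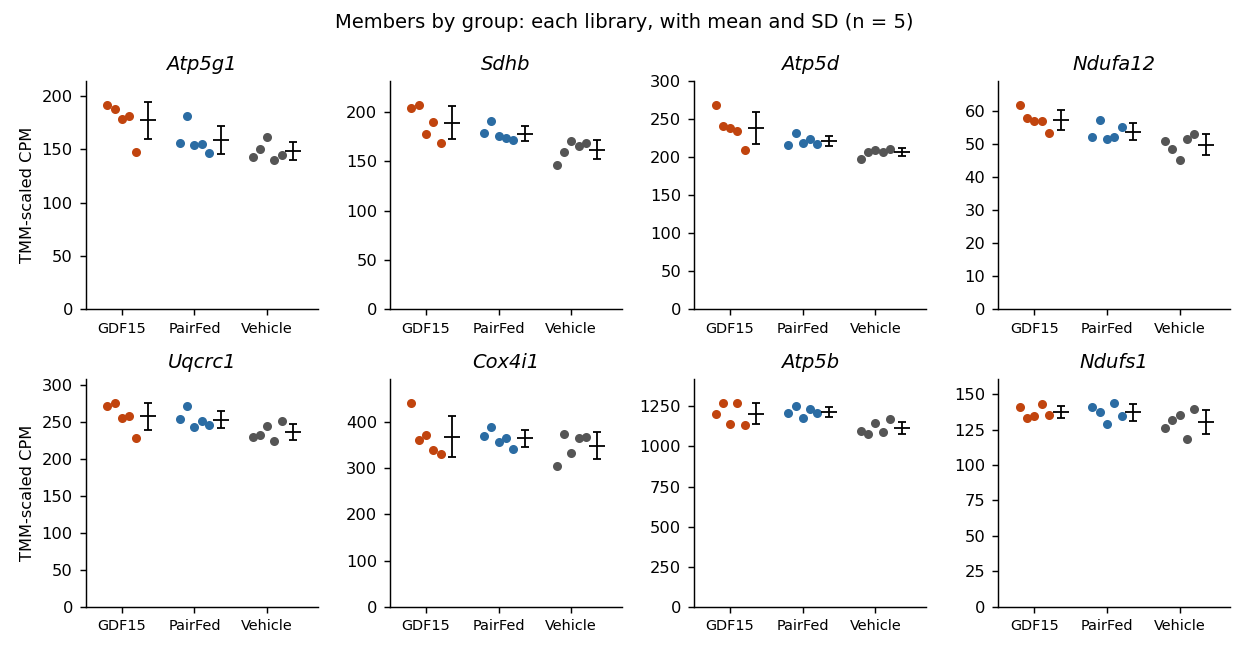
TMM-scaled CPM (y axes, from 0) of 8 members in the 5 GDF15, 5 PairFed and 5 Vehicle livers, each point 1 library and each bar the mean with the SD. Sdhb averaged 189 CPM in GDF15, 178 CPM in PairFed and 162 CPM in Vehicle, and the groups overlap in every panel for GDF15 against Vehicle except that of Ndufa12.

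The members varied together from liver to liver. Their mean log2 CPM, taken relative to the mean of the Vehicle livers, was 0.28, 0.14, 0.11, 0.05 and -0.08 in GDF15, 0.05, 0.15, 0.06, 0.01 and 0.00 in PairFed, and -0.14, 0.03, 0.02, 0.05 and 0.05 in Vehicle. GDF15 1 was the highest of all 15 livers and Vehicle 1 the lowest, and GDF15 5 lay below 4 of the 5 Vehicle livers. Of the 88 members, 68 (77.3%) were highest in GDF15 1 within their group, against 26.2% of all genes, and 76 (86.4%) were lowest in GDF15 5, against 22.8%. In PairFed, 58 members (65.9%) were highest in PairFed 2, against 20.6% of all genes, and in Vehicle 66 (75%) were lowest in Vehicle 1, against 18.5%. Each of the 5 complexes, and the assembly factors, had its highest GDF15 liver in GDF15 1, its lowest GDF15 liver in GDF15 5, its highest PairFed liver in PairFed 2 and its lowest Vehicle liver in Vehicle 1. Mitochondrial ribosome genes had the same extremes: 0.20 in GDF15 1, -0.07 in GDF15 5, 0.09 in PairFed 2 and -0.08 in Vehicle 1. Cytosolic ribosome genes shared those of GDF15 1 (0.16), GDF15 5 (-0.08) and Vehicle 1 (-0.11), but were highest in PairFed 3 within PairFed. This order was thus not particular to the members.

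**Figure D3:**
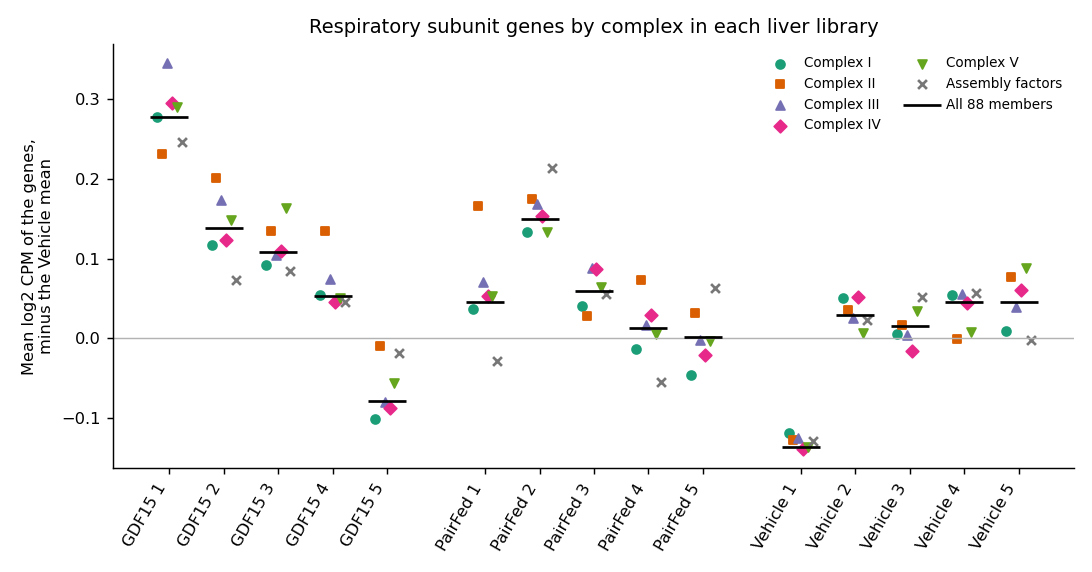
Mean log2 CPM of the genes of each complex (symbols) and of all 88 members (black bars) in each library, minus the mean of the Vehicle libraries (y axis). All complexes are high in GDF15 1 and low in GDF15 5 and Vehicle 1, and the range within GDF15, from -0.08 to 0.28, is wider than the distance between the groups' means.

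Deviations of the 76 structural subunits from their group means were correlated over the 15 livers with a median pairwise r of 0.67, and 98.5% of the pairs were positive. Both genes of a pair are read from the same libraries, so library quality and tissue make-up are shared by them. The spread of a single member was nevertheless small: the median within-group SD of log2 CPM was 0.12 for the structural subunits, against 0.15 for the 9303 other tested genes at or above the lowest structural subunit. That lowest subunit was Atp5g2, with a mean log2 CPM of 2.57, so the sets were not matched for abundance. Atp5b had the smallest SD of the members, 0.06, and Atp5g2 the largest, 0.47.

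Leaving out single livers moved the median of the members. In GDF15 against Vehicle it was 0.05 without GDF15 1 and 0.13 without GDF15 5. In GDF15 against PairFed it was 0.0044 without GDF15 1 and 0.10 without GDF15 5. In PairFed against Vehicle it was 0.02 without Vehicle 1 and 0.07 without PairFed 5. With a term for the 5 deeper libraries, the median was 0.10 in GDF15 against Vehicle, 0.03 in PairFed against Vehicle and 0.09 in GDF15 against PairFed. Among the shallower libraries alone it was 0.10 in GDF15 against Vehicle, 0.06 in PairFed against Vehicle and 0.05 in GDF15 against PairFed, with 1 PairFed liver left, and the deeper libraries hold no GDF15 liver to compare.

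Hepatocyte markers followed the members in part, and markers of other liver cells stood apart in GDF15 1 and GDF15 5. The mean log2 level of the 9 hepatocyte markers, relative to the Vehicle mean, was highest in GDF15 1 (0.36) within GDF15 and in PairFed 2 (0.20) within PairFed, and lowest in Vehicle 1 (-0.13) within Vehicle, as for the members. GDF15 5, lowest of its group for the members, was at 0.14 for these markers, above GDF15 3 (0.09). All 10 endothelial and all 10 Kupffer cell markers were tested and were detected in every library, as were all 10 stellate cell and fibroblast markers. GDF15 1 had the lowest endothelial score of all livers, 1.04 log2 units below the Vehicle mean (-1.04), the lowest Kupffer score (-0.77) and the lowest stellate score (-1.18). GDF15 5 had the highest endothelial score of its group, 0.59, and the highest Kupffer score of all livers, 0.75, while its stellate score was 0.01, below the 0.08 of GDF15 3. PairFed 2 was the lowest PairFed liver for stellate markers (-0.67) but not for endothelial (-0.09) or Kupffer markers (0.09). Vehicle 1 was the highest Vehicle liver for Kupffer markers (0.22) but not for endothelial (0.23) or stellate markers (0.23). Vehicle 4, the lowest Vehicle liver for endothelial markers at -0.77, had a member score of 0.05. Summed endothelial levels ran from 90.8 to 252 CPM in GDF15, from 163 to 279 CPM in PairFed and from 129 to 215 CPM in Vehicle. Summed Kupffer levels ran from 300.0 to 662 CPM in GDF15, from 427 to 546 CPM in PairFed and from 464 to 657 CPM in Vehicle. Summed stellate levels ran from 254 to 637 CPM in GDF15, from 380 to 623 CPM in PairFed and from 452 to 799 CPM in Vehicle. Summed levels of recruited monocyte markers ran from 303 to 568 CPM in GDF15, from 356 to 558 CPM in PairFed and from 404 to 854 CPM in Vehicle, and those of T, NK and B cells from 4.73 to 6.54 CPM in GDF15, from 4.60 to 11.4 CPM in PairFed and from 8.13 to 24.5 CPM in Vehicle. Of these lists, Ly6c2 fell by 1.38 (adjusted p = 0.0311) and Cd8a fell by 2.03 (adjusted p = 0.0172) on the log2 scale in GDF15 against Vehicle, by edgeR's test. The hepatocyte markers had a median log2 fold change of 0.21 in GDF15 against Vehicle, with 1 of 9 past edgeR's threshold, Cps1 of the urea cycle (log2 fold change 0.76, adjusted p = 0.000274). The part of tissue make-up in the members' values was not tested.

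Short transcripts also followed these livers in part. They were read from 541 tested genes outside the members with transcripts under 1000 bases and a level at or above the lowest structural subunit. Genes for cytosolic and mitochondrial ribosomal proteins were left out of this set. The 541 genes averaged 0.11 in GDF15 1, -0.08 in GDF15 5, 0.04 in PairFed 2 and -0.07 in Vehicle 1, relative to the Vehicle mean. Vehicle 4, at 0.09, was close to GDF15 1 for them but not for the members. Their group means were 0.02 in GDF15, 0.00 in PairFed and 0 in Vehicle, below the 0.10 and 0.05 of the members in GDF15 and PairFed. The 4279 tested genes outside the members with transcripts of at least 3000 bases, chosen by the same rules, ran the other way there. Long transcripts averaged -0.04 in GDF15 1, 0.06 in GDF15 5, -0.02 in PairFed 2, 0.03 in Vehicle 1 and -0.05 in Vehicle 4. The part of transcript length in the members' values was not tested.

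The direction in GDF15 depended on how libraries were scaled. With total counts alone in place of TMM, the median over all genes in GDF15 against Vehicle shifted to -0.12, and the median of the members became -0.02, with 31 of 88 positive. Relative to the median of all genes the members stood at 0.10 with TMM, with DESeq2 size factors, with upper-quartile factors and with total counts alone. In GDF15 against PairFed total counts alone gave -0.02 for the members and -0.07 for all genes. As a plain share of all counts the members held 1.23 ± 0.05% in GDF15, 1.26 ± 0.03% in PairFed and 1.24 ± 0.03% in Vehicle (mean ± SD, n = 5 each), with no order of the groups beyond their spread. The TMM factors were 0.92 to 1.02 in GDF15, 0.97 to 1.05 in PairFed and 1.00 to 1.09 in Vehicle. The direction given for the members is thus relative to the other genes and says nothing of the amount of RNA per liver.

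**Figure D4:**
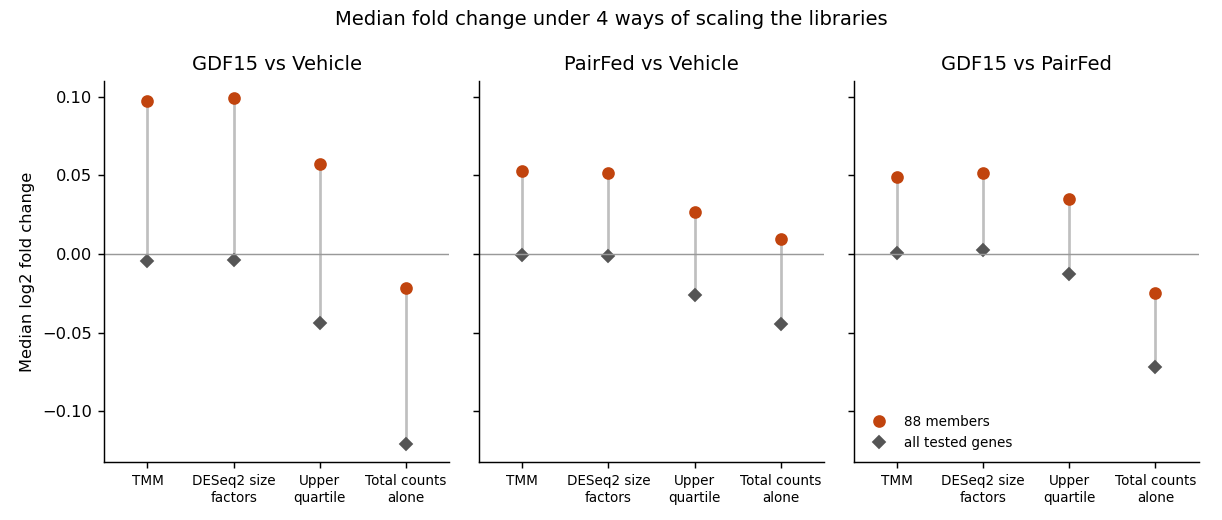
Median log2 fold change (y axis) of the 88 members (circles) and of all tested genes (diamonds) under 4 ways of scaling, in 1 panel per comparison. Both medians shift down together from TMM to total counts alone, and the members stay above all genes in each column.

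Genes that work beside the complexes were read from fixed lists. The list for the citric acid cycle, which makes the NADH and succinate that the chain burns, also held Pdha1, Pdhb and Dlat of pyruvate dehydrogenase. It had positive log2 fold changes for 16 of 16 genes in GDF15 against Vehicle, with a median of 0.13. edgeR's test called 0 of them, 7 stood at an unadjusted p below 0.05, DESeq2 called 3 and limma-voom called 0. In PairFed against Vehicle 14 of 16 were positive, with a median of 0.09. Of the 22 tested carriers beside the complexes, such as the ADP/ATP and phosphate carriers and the enzymes of ubiquinone synthesis, 17 were positive in GDF15 against Vehicle, with a median of 0.08. edgeR's test called 0 of them, with 4 at an unadjusted p below 0.05, DESeq2 called 2 (Coq10a and Coq10b) and limma-voom 0. For the 37 assembly factors of the complexes outside the symbol rule, 22 were positive, with a median of 0.02, and 0 passed with any of the 3 tools, while 4 stood at an unadjusted p below 0.05.

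The mitochondrial ribosome makes the subunits encoded in mitochondrial DNA. Of its 78 genes, 62 were positive in GDF15 against Vehicle, with a median of 0.05, and 0 passed with any of the 3 tools, while 5 stood at an unadjusted p below 0.05 in edgeR's test. The cytosolic ribosome, whose transcripts are also short and abundant, had 50 of 81 genes positive, with a median of 0.01, and 0 passed with any tool, with 0 at an unadjusted p below 0.05. In GDF15 against PairFed 71 of the 81 cytosolic ribosome genes were positive, with a median of 0.04. The members had 71 of 88 positive there, with a median of 0.05, so a positive majority was not particular to them. In PairFed against Vehicle 21 of the 81 were positive, with a median of -0.02. Of the 78 mitochondrial ribosome genes, 46 were positive in GDF15 against PairFed (median 0.01) and 46 in PairFed against Vehicle (median 0.02). The differences between these lists and the members were not tested.

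**Figure D5:**
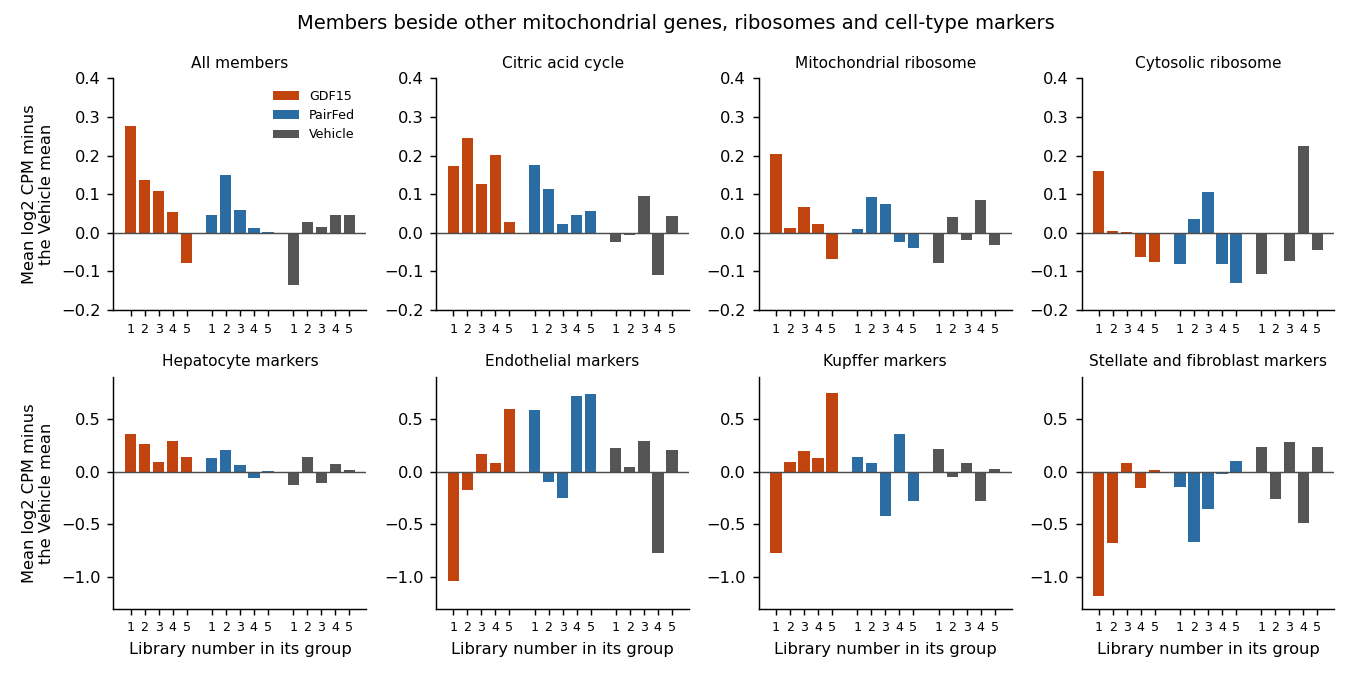
Mean log2 CPM of 8 gene lists in each library, minus the mean of the Vehicle libraries (y axes), for GDF15, PairFed and Vehicle libraries 1 to 5. The upper row runs from -0.2 to 0.4 and the lower row from -1.3 to 0.9; GDF15 1 is high for the members at 0.28 and low for endothelial (-1.04), Kupffer (-0.77) and stellate (-1.18) markers.

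Of 18 tested regulators of respiratory genes, 9 had a positive log2 fold change in GDF15 against Vehicle, with a median of -0.01. In PairFed against Vehicle 10 were positive (median 0.01), as were 10 in GDF15 against PairFed (median 0.01). By edgeR's test 1 of the 18, Ppargc1a, was higher in GDF15 against Vehicle and against PairFed. In PairFed against Vehicle 0 passed edgeR's test, with 2 at an unadjusted p below 0.05, 1 called by DESeq2 and 0 by limma-voom. Ppargc1a, the coactivator that drives mitochondrial biogenesis and fasting gluconeogenesis, averaged 24.6 ± 6.61 CPM in GDF15, 13.5 ± 2.66 CPM in PairFed and 12.1 ± 1.43 CPM in Vehicle (mean ± SD, n = 5 each). The lowest GDF15 liver, at 17.8 CPM, lay above the highest PairFed liver, at 15.8 CPM, and the highest Vehicle liver, at 13.9 CPM. Its log2 fold change was 1.02 ± 0.17 (SE, adjusted p = 0.00371) in GDF15 against Vehicle and 0.15 ± 0.17 (SE, adjusted p = 0.694) in PairFed against Vehicle. In GDF15 against PairFed it was 0.86 ± 0.17 (SE, adjusted p = 0.0253). That call was lost in 8 of 25 alternatives, with adjusted p-values between 0.056 and 1: without GDF15 1, GDF15 2, PairFed 3, PairFed 4 or PairFed 5, in a fit of the pair of groups alone, with a term for the deeper libraries, and among the shallower libraries, where PairFed has 1 liver. The log2 fold change in these 8 ran from 0.64 to 0.89.

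Partners and relatives of Ppargc1a did not pass edgeR's test on all libraries, and passed in a few alternatives. Ppargc1b averaged 6.87 ± 2.24 CPM in GDF15, 4.91 ± 1.19 CPM in PairFed and 3.58 ± 1.48 CPM in Vehicle, and stood 0.91 ± 0.30 log2 units (SE, adjusted p = 0.117) above Vehicle in GDF15. Esrra, the nuclear receptor through which the coactivator reaches many respiratory genes, averaged 39.7 ± 3.79 CPM in GDF15, 41.8 ± 4.98 CPM in PairFed and 32.3 ± 3.51 CPM in Vehicle. Its log2 fold change was 0.29 ± 0.09 (SE, adjusted p = 0.0979) in GDF15 against Vehicle and 0.37 ± 0.09 (SE, adjusted p = 0.0753) in PairFed against Vehicle. In GDF15 against Vehicle Ppargc1b passed in 3 of 24 alternatives, with DESeq2 (adjusted p = 0.0466), with edgeR and a term for the deeper libraries (adjusted p = 0.0306) and with edgeR without GDF15 3 (adjusted p = 0.0365). Esrra passed there in 1 of 25, with edgeR and the depth term (adjusted p = 0.0196). In PairFed against Vehicle Esrra passed in 2 of 25, with DESeq2 (adjusted p = 0.022) and with edgeR without PairFed 1 (adjusted p = 0.0367). The levels of the transcription factors were close between groups. Nrf1 averaged 9.87 ± 0.87 CPM in GDF15, 10.1 ± 1.23 CPM in PairFed and 10.3 ± 2.09 CPM in Vehicle. Gabpa, the DNA-binding subunit of GABP, averaged 39.9 ± 2.48 CPM in GDF15, 38.2 ± 2.40 CPM in PairFed and 38.0 ± 2.22 CPM in Vehicle. Tfam, which maintains mitochondrial DNA, averaged 41.0 ± 3.24 CPM in GDF15, 40.8 ± 0.86 CPM in PairFed and 40.2 ± 1.89 CPM in Vehicle.

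Since the members varied together, their promoters were searched for the sites of 3 shared factors. RefSeq promoters of build GRCm38.p6, from 250 bases before to 50 bases after the start, were found for 73 members, and both strands were read. A gene was counted for a motif if any of its promoters held a match. NRF1 (GCGCANGCG) was found in 22 (30.1%), against 15% of the 9847 tested genes with a promoter and 7.03% of all 27025 genes with one. GABP and related ETS factors (CCGGAAG) were found in 19 (26.0%), against 19.8% and 9.93%. YY1 (AAGATGGCG) was found in 8 (11%), against 3.56% and 1.64%. At least 1 motif was found in 40 members (54.8%), against 33.4% and 16.5%. A match is a description of letters and does not show binding. The 4 promoters below show each motif, with the letters of a match in capitals, and that of Atp5g1, which has no match.
Cox6a1 (chr5:115348909-115349208, minus strand; NRF1 and ETS): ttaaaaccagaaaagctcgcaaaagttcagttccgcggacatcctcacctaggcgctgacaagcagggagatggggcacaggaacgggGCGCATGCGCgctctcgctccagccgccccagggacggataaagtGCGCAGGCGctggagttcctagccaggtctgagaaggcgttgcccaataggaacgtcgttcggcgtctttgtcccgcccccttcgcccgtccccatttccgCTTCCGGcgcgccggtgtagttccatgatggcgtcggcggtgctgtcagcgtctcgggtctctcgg
Sdhb (chr4:140961021-140961320, plus strand; ETS): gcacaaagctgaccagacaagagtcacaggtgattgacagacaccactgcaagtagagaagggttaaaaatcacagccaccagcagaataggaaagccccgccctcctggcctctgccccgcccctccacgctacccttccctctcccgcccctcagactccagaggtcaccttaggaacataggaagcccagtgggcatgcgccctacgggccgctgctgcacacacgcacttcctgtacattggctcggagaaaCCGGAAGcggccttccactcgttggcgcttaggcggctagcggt
Ndufs7 (chr10:80249199-80249498, plus strand; YY1): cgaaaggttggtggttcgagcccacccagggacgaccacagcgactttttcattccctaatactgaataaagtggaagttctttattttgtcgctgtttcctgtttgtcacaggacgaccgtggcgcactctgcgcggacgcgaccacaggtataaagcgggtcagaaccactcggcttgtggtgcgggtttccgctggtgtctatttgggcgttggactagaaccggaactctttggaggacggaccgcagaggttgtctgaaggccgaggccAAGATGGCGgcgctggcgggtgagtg
Atp5g1 (chr11:96075582-96075881, minus strand; none): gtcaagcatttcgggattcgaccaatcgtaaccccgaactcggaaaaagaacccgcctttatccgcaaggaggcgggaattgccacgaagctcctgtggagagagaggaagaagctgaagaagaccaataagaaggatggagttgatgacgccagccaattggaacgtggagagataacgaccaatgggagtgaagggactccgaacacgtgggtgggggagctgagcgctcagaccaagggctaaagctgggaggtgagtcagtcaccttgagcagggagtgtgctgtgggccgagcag

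In Cox6a1 there are 3 NRF1 matches, of which 2 overlap in the longer run of capitals, and 1 ETS match read on the opposite strand. In Ndufs7 the YY1 match lies downstream of the start. In GDF15 against Vehicle members with and without a motif had similar log2 fold changes. The median there was 0.11 for the 22 members with NRF1 and 0.09 for the 51 without it. It was 0.10 for the 19 with ETS and 0.09 for the 54 without it, and 0.07 for the 8 with YY1 and 0.10 for the 65 without it. For YY1 the medians lay further apart in the other comparisons. They were -0.01 with it and 0.07 without it in PairFed against Vehicle, and 0.09 and 0.05 in GDF15 against PairFed. The differences by motif were not tested. Of the 4 printed promoters, Atp5g1 without a match had the highest value in GDF15 against Vehicle, 0.26, and Sdhb with 1 ETS match had 0.22.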

How the data were processed

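Liver RNA was sequenced with a directional total RNA kit, per the labels' protocols. The authors deposited 1 table of whole-number estimated counts for 15302 gene symbols in 15 libraries. Per the submitters' processing notes, Salmon and DESeq2 were used with build mm10, with no version recorded; the sources used here give neither transcript set nor strand setting. Column names gave the group but not the animal, so libraries carry no pairing, and 0 columns were identical and 0 were left unused.

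From these estimated counts, genes with low counts were removed with filterByExpr (minimum count 10, total 15), which left 12274 genes and 99.92% of the counts. Libraries were scaled by TMM, and all 15 libraries entered 1 model in edgeR 4.0.16 (quasi-likelihood test, robust, R 4.3.3) with Benjamini-Hochberg adjustment over all 12274 genes and a threshold of 0.05. Log2 CPM values for scores used a prior count of 2. The biological coefficient of variation was 13.28%. DESeq2 1.42.0 and limma-voom (limma 3.58.1), other scalings and filters, a depth term, subsets of libraries, other member lists and leaving out each library served as alternatives. The test was tried on simulated data first. No correction for transcript length was made.

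The members, gene lists and tests were chosen with earlier results of these data known. By rule the text names the members past the threshold, the 4 largest rises and falls in each comparison, fixed members of each complex and fixed regulators. Other members named are said to have been chosen after their values were seen. Transcripts and positions came from GENCODE M21 and promoters from RefSeq, both on GRCm38. Depth was 8551557 to 12994187 counts per library.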

Additional observations from a re-analysis of the deposited data

Results flagged for a closer look

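In 132 groups of 5 libraries, the gap between the most extreme library and its neighbour, as a share of the group's range, was compared with Dixon's critical value of 0.71. It was exceeded in 9, where chance gives about 1 in 20, so the number of flags was not far from that rate. The groups also share genes and livers, so the flags are not separate findings.

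Vehicle 1 was the lowest Vehicle liver with a gap of 0.833 for the mean of all members (-0.14, next lowest 0.02), 0.713 for complex I (-0.12, next 0.01) and 0.712 for complex III (-0.12, next 0.0038). The same liver stood apart for Atp5d, with a gap of 0.73 (197 CPM, next lowest 207 CPM).

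For Atp5g1, GDF15 5 stood below the other GDF15 livers with a gap of 0.713 (148 CPM, next lowest 179 CPM), and PairFed 2 stood above the other PairFed livers with 0.746 (181 CPM, next highest 156 CPM). PairFed 2 also stood apart for Ndufb8, with a gap of 0.753 (119.8 CPM, next highest 101 CPM). Ndufaf8, an assembly factor of complex I, was highest in GDF15 1 with a gap of 0.795 (13.9 CPM, next highest 11.1 CPM).

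Outside the members, Vehicle 4 had the lowest endothelial marker score of the Vehicle livers, with a gap of 0.765 (-0.77, next lowest 0.04). Its member score, 0.05, did not stand apart.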

How the results depend on the processing

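No paired analysis was possible because the columns of the table carry no link between animals of different groups. In GDF15 against Vehicle edgeR's test called 0 members and DESeq2 called 4, with adjusted p-values of 0.011 for Atp5d, 0.0217 for Sdhb, 0.0233 for Atp5g1 and 0.0435 for Ndufa12. Over the fits that left out 1 library the count ran from 0 to 3, with 3 without GDF15 5 (Sdhb also called, adjusted p = 0.0385) and 1 without PairFed 2. With total counts alone, a setting chosen after seeing the data, the median of the members reversed to -0.022 in GDF15 against Vehicle and to -0.025 in GDF15 against PairFed. In the first comparison the sign then also turned for Ndufs1 (-0.038), Ndufv1 (-0.025), Sdha (-0.027), Uqcrfs1 (-0.033), Cox4i1 (-0.040), Atp5a1 (-0.031), Atp5b (-0.0082), Atp5g3 (-0.046) and Cox7a1 (-0.043), since that scaling moved all genes down.

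With a term for depth the sign turned for Ndufaf8 in GDF15 against Vehicle (0.012), and for Ndufa4l2 (0.34) and Ndufaf3 (0.13) in GDF15 against PairFed. With the shallower libraries only, it turned for Ndufaf7 (0.0063) and Ndufb3 (0.0097) in GDF15 against Vehicle, for Ndufa4l2 (-0.33), Ndufb3 (0.0013) and Ndufa8 (0.022) in PairFed against Vehicle, and for Ndufa4l2 (0.63) and Ndufaf3 (0.058) in GDF15 against PairFed. The cause of these turns was not tested. Leaving out single libraries turned members near 0: in GDF15 against Vehicle Cox7a1 ran from -0.13 to 0.25, Ndufaf7 from -0.091 to 0.0051, Ndufb4c from -0.038 to 0.014, Ndufaf8 from -0.092 to 0.034 and Ndufb3 from -0.092 to 0.025. In GDF15 against PairFed Ndufa4l2 ran from -0.29 to 0.024 and Atp5b from -0.032 to 0.0087. Relative to the median of all genes, the median of the members was above it in all 28 settings of each comparison, by 0.06 to 0.14 in GDF15 against Vehicle, 0.02 to 0.07 in PairFed against Vehicle and 0.0055 to 0.10 in GDF15 against PairFed. The 28 settings are not separate checks. They include the fit on all libraries and fits without a library of the group not compared. A change of scaling also moves members and all genes together.

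Group sizes of 5, a shift smaller than the differences between livers, and no measured RNA amount per cell limit these results. Cox7a1 had 254 counts and a within-group SD of 0.43, and Ndufa4l2 had 229 counts and an SD of 0.42. Atp5g2 had 934 counts and an SD of 0.47, and Ndufaf5 had 866 counts and an SD of 0.20. Each word of Atp5g2 is also found in another gene. The cause of the wide spread of Cox7a1, Ndufa4l2 and Atp5g2 was not tested.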
